A study of Mus musculus with 4 samples.

Results

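Tetraspanins are small proteins that cross the membrane several times and gather partner proteins such as integrins, immunoglobulin-type receptors and proteases into patches of the cell surface. Several of them are sorted into the internal vesicles of late endosomes and leave the cell on exosomes, for which CD9, CD63 and CD81 are common markers. In melanoma and other tumours, family members have been linked to migration and spread in opposite ways: CD151 as a promoter of invasion, and CD9 and CD82 as restraints on it. The 9 members described here, Cd9, Cd63, Cd81, Cd82, Cd151, Tspan3, Tspan4, Tspan9 and Tspan10, were taken as a list of names, drawn up with earlier results of these data known. All 9 were found among the 53465 genes of the count table, and 8 of them passed the filter on low counts that left 12320 genes for testing. Cd82 did not pass it.

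The cells were B16-F10, a mouse melanoma line grown in IMDM with 10% FBS. Fluorescent cells had been infused into zebrafish, and the control group consists of infused cells that took no part in extravasation. Each group has 2 libraries of polyA RNA, numbered here in accession order only to name them (extravasated_1, extravasated_2, not_extravasated_1 and not_extravasated_2). One growth text, about cells that extravasated as clusters, stands with all 4 samples, so the grouping rests on the extravasation field alone. The sample titles give each group a number of its own, and whatever it stands for cannot be told apart from extravasation. Whether the 2 libraries of each group stem from independent cultures is not stated, and the p-values below rest on a spread between libraries that may be technical. Per the growth text the cells were isolated from the fish and grown in vitro before RNA was taken.

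Library totals ran from 11705904 to 19674733 counts. All 9 melanocyte markers were detected in each library, with a summed level of 24200 to 31800 CPM, the count scaled to library size with TMM factors. The summed levels of 5 fibroblast, 6 leukocyte, 5 endothelial and 5 epithelial markers were 8.44 to 11.3, 4.73 to 5.63, 3.81 to 15.3 and 0.693 to 1.21 CPM, and Dcn, Lum, Ptprc, Cd3e, Cdh5, Kdr, Tek, Epcam, Krt8 and Krt5 had no count in any library. Of the 9 melanocyte markers 3 rose (Pmel, Sox10 and Gpr143) and 2 fell (Tyr and Mitf), beside 19.1% and 25.9% of all tested genes. After the correction described below 2 rose (Mlana and Gpr143) and 0 fell, beside 7.91% and 5.74% of all tested genes. The endothelial sum was higher in the extravasated libraries, 15.3 CPM in both against 8.76 and 3.81, of which Vwf alone gave 14.3 and 14.8 against 8.67 and 3.41. The fibroblast sum (11.3 and 10.7 against 8.76 and 8.44 CPM) and the epithelial sum (1.13 and 1.21 against 0.693 and 0.751) were higher there too, although of the fibroblast markers Col1a1 rose and Pdgfra fell. The part of these lists in the results was not tested. The log2 fold change of extravasated over non-extravasated cells rose with transcript GC content, with a Spearman rho of 0.74 across 11126 nuclear coding genes, which are not independent replicates. The fold change of each tested member, and of some other genes below, is therefore given also after a correction for transcript GC content and length. The correction brought that rho to 0.03. Unless stated otherwise, a value given alone is uncorrected.

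Of the members' promoters 3 are shown. Tspan10 and Tspan4 had the highest fold changes among the members, and Tspan3 the smallest in size, while it shares a rare sequence with Tspan10. The stretches run 5′ to 3′ on the gene's strand and end at the base before the RefSeq start site (GRCm38.p6). They are chr11:120442381-120442630 (plus strand) for Tspan10, chr9:56161071-56161320 (minus strand) for Tspan3 and chr7:141475133-141475235 (plus strand) for Tspan4, where bases in annotated exons of other transcripts were left out. Capitals mark the octamer TCATGTGA or its reverse complement TCACATGA, and the GC box GGGCGG or CCGCCC. The octamer is an E-box of the M-box type, a kind bound by MITF. Other forms of the M-box were not searched for.
Tspan10: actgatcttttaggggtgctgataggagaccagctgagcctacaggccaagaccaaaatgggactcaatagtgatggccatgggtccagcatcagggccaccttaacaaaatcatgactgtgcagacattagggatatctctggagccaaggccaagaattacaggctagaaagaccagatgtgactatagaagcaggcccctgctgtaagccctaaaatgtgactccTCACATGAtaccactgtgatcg
Tspan3: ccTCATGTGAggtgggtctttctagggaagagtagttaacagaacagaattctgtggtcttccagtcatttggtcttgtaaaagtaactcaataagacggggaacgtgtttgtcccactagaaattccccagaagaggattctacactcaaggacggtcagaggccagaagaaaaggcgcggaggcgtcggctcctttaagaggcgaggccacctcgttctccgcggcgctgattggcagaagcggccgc
Tspan4: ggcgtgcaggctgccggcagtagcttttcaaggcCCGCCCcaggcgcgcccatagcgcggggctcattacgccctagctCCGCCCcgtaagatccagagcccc
The octamer begins 22 bases before the start of Tspan10 and 248 bases before that of Tspan3. Of 32851 RefSeq promoter windows of 300 bases, 0.986% hold it on either strand, and none of the windows of the other 7 members does. The E-box core CATGTG, which lies within the octamer, was found in 14.2% of windows, and among the members also in those of Cd9 and Tspan9. Another E-box core, CACGTG, was found in 7.15% of windows. Among the members it was found only in 1 of the 2 windows of Tspan4, not the one shown. GC boxes were found in 35.7% of windows, among them at least 1 of the windows of Cd9, Cd81, Cd82, Cd151, Tspan4 and Tspan9. The Tspan10 window had 1 CpG dinucleotide and a GC content of 49.7%, and the Tspan4 window had 29 and 68.7%. A match describes the letters only. Mitf RNA was at 529 and 320 CPM in the control and 166 and 203 CPM in the extravasated libraries, a change of -1.20 on the log2 scale (adjusted p = 0.013), and -0.13 after correction (adjusted p = 0.71). Of the 2 members with the octamer, Tspan10 rose and Tspan3 did not pass the test, and the difference between them was not tested.

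Extravasated cells had higher RNA levels of Tspan10, Tspan4, Cd151 and Cd63 and a lower level of Cd9. Of the 8 tested members 4 rose and 1 fell by edgeR's quasi-likelihood test, at an adjusted p under 0.05 over all tested genes. Among all 12320 genes 45.1% were called, 19.1% as higher and 25.9% as lower. Fewer members were called without extravasated_2, as were fewer of all tested genes. The members' median log2 fold change was 0.46, against -0.02 for all tested genes. After GC and length correction 1 member, Tspan10, rose and none of the 8 fell by edgeR. At an unadjusted p under 0.05 there were 3 rises and 0 falls, beside 4008 of all 12320 genes in either direction. Across all genes 13.6% were called after correction, 7.91% as higher and 5.74% as lower, and the members' median was 0.10, against 0.04 for all genes. With the longest transcripts in the correction 2 members, Tspan10 and Cd63, rose and 0 fell. At an unadjusted p under 0.05 it was 3 and 0, beside 3942 of all 12320 genes in either direction. Of all genes 13.4% were called by adjusted p, 7.83% as higher and 5.6% as lower. The groups did not overlap in CPM for any of the 8 tested members, 7 higher and 1 lower, as for 76.3% of all tested genes (37.3% higher and 39% lower). In corrected CPM they did not overlap for 4 of the 8, 3 higher and 1 lower, against 62.5% of all tested genes (35.5% higher and 26.9% lower). The summed CPM of all 9 members, uncorrected, was 1481 and 1398 in the non-extravasated and 2010 and 2120 in the extravasated libraries. It rests mostly on the members with the highest CPM, and no corrected sum was made. After correction Cd63 had 416 and 393 against 414 and 404 CPM, and Cd81 had 394 and 326 against 338 and 363. Tspan10 had 272 and 246 against 421 and 395 corrected CPM. In RNA from whole cultures, fewer cells that express a gene and less RNA per cell cannot be told apart.

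**Figure D1:**
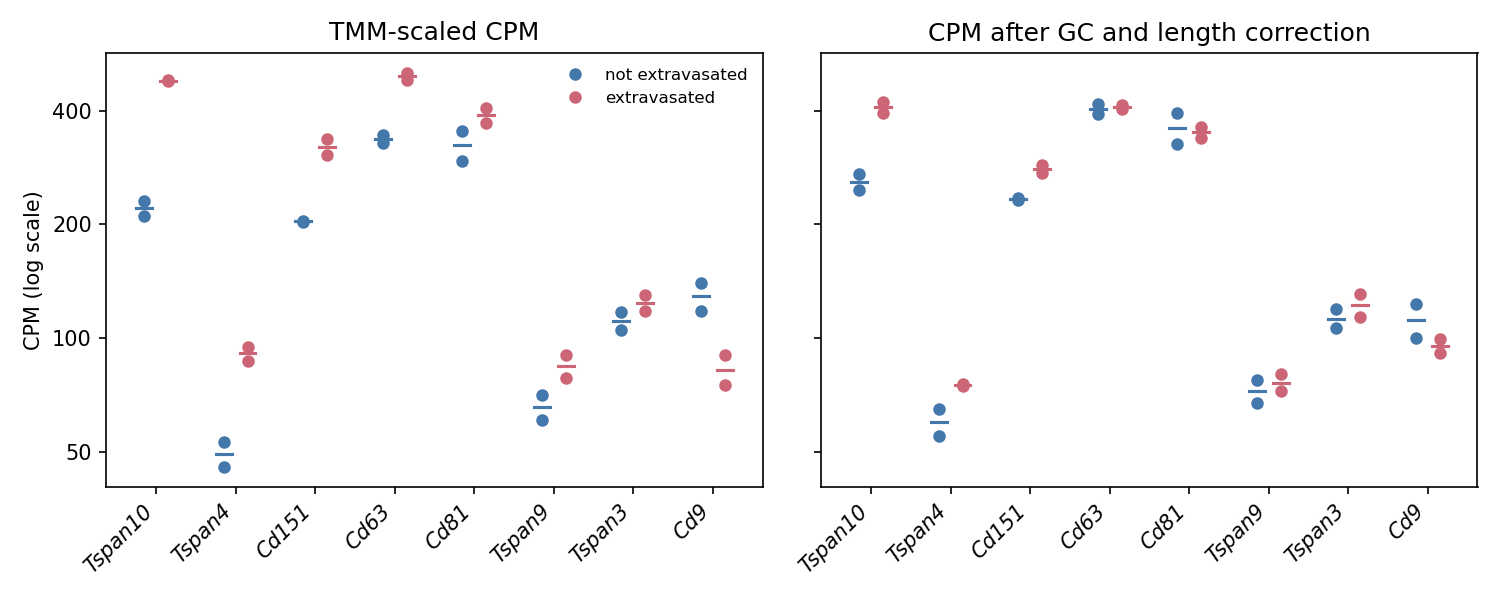
Levels of the 8 tested tetraspanins in each library (points) with the group mean (bars), as TMM-scaled CPM on the left and after GC and length correction on the right, both on a log axis. On the left all groups are apart; on the right Tspan10 stays apart (246 and 272 against 395 and 421 CPM), while Cd63 and Cd81 overlap.

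Tspan10 (ENSMUSG00000039691.10, GRCm38 chromosome 11, 120442644 to 120446950), also called oculospanin, is a tetraspanin of the eye and of pigment cells. It belongs to the TspanC8 subgroup, which escorts the protease ADAM10 out of the endoplasmic reticulum. Its level was 230 and 211 CPM in the non-extravasated and 478 and 481 CPM in the extravasated libraries. The extravasated libraries were nearly level with each other, and the groups stood far apart. The fold change was 2.17, or 1.12 ± 0.12 on the log2 scale (SE), with an adjusted p of 0.00086, and lay at the 98.2th percentile of all tested genes. It passed the test without each library in turn, with log2 fold changes of 1.06 to 1.18. After correction the levels were 272 and 246 against 421 and 395 CPM, the log2 fold change was 0.65 ± 0.11 (adjusted p = 0.015), and it was 0.63 with the longest annotated transcript. The corrected value was 0.58 to 0.73 with 1 library left out, but it was no longer called without extravasated_1 or extravasated_2 (adjusted p = 0.12 in both cases).

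The protease that Tspan10 escorts moved the other way before correction. Adam10, a sheddase of Notch, cadherins and other surface proteins, had 206 and 150 CPM in the control and 59.5 and 66.3 CPM in the extravasated libraries, which is a change of -1.50 ± 0.18 on the log2 scale (adjusted p = 0.0012). After correction it was -0.34 and not called (adjusted p = 0.11). The ratio of Tspan10 to Adam10 CPM was 1.12 and 1.41 in the control and 8.03 and 7.25 in the extravasated libraries, and 2.18 and 2.2 against 4.77 and 3.98 with corrected values. Both ratios were higher in the extravasated libraries, and no test was made of them. That they were higher follows from the levels of each gene, whose groups stood apart in opposite directions on both scales. Of the other TspanC8 genes, Tspan14 rose (log2 fold change 0.47, adjusted p = 0.034). Tspan5 (0.18), Tspan15 (0.09), Tspan17 (0.78, adjusted p = 0.055) and Tspan33 (-0.40) did not pass the test. After correction Tspan5, Tspan15, Tspan17 and Tspan33 had 0.65, 0.06, 0.21 and -0.88, and none of them was called. Tspan33 was close to absent, with 6 and 30 counts in the control and 16 and 12 in the extravasated libraries. The SE of its corrected value was 0.64. Tspan17 was called higher with RLE or upper quartile factors, with limma-voom, without an expression filter and with the title suffix as a term. Tspan14 had 0.33 after correction and was not called, and it lost its call without 3 of the 4 libraries in turn and with library totals (adjusted p = 0.062).

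Cd63 (ENSMUSG00000025351.14, chromosome 10, 128900989 to 128912822) encodes the tetraspanin of late endosomes, lysosomes and exosomes, which in melanocytes also sorts the melanosome matrix protein PMEL into internal vesicles. It had 344 and 328 CPM in the non-extravasated and 481 and 504 CPM in the extravasated libraries. The rise was 1.47-fold, with a log2 value of 0.55 ± 0.11 (adjusted p = 0.0071). Without extravasated_2 it was 0.49 and not called (adjusted p = 0.093). The corrected value depended on the transcript taken for the gene. With the principal transcript, of 1063 nucleotides and 55.2% GC, the corrected levels were 416, 393, 414 and 404 CPM, the groups overlapped and the log2 fold change was 0.02 (adjusted p = 0.94). With the longest coding transcript, of 1109 nucleotides and 49.6% GC, it was 0.42 and called (adjusted p = 0.046). Gene counts do not tell which transcript these cells use.

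Cd9 (ENSMUSG00000030342.8, chromosome 6, 125460266 to 125494791), which binds integrins and the immunoglobulin-type protein IGSF8 at the cell surface, was the 1 member that fell. Its level was 118 and 140 CPM in the non-extravasated and 89.9 and 75.0 CPM in the extravasated libraries. The log2 fold change was -0.65 ± 0.15 (adjusted p = 0.012), a 1.57-fold fall. It was -0.56 and not called without extravasated_2 (adjusted p = 0.11). After correction the value was -0.23 ± 0.14 (adjusted p = 0.28), with 100 and 123 against 99.2 and 91.1 CPM. Among the 3 exosome markers Cd63 rose, Cd9 fell, and Cd81 did not pass the test. The Cd63 to Cd9 ratio of CPM was 2.92 and 2.34 in the control and 5.35 and 6.72 in the extravasated libraries. With corrected values it was 4.16 and 3.20 against 4.17 and 4.43, and the groups nearly met.

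Cd81 (ENSMUSG00000037706.17, chromosome 7, 143052739 to 143067934), a cell surface and exosome tetraspanin, had 353 and 294 CPM in the non-extravasated and 372 and 407 CPM in the extravasated libraries. The highest control and the lowest extravasated library lay closer together than the 2 control libraries. The log2 fold change was 0.27 ± 0.13 (adjusted p = 0.14). It was 0.40 and called without not_extravasated_1 (adjusted p = 0.018) and 0.36 with upper quartile scaling (adjusted p = 0.048). After correction it was -0.04 ± 0.13, with overlapping groups.

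Cd151 (ENSMUSG00000025510.14, chromosome 7, 141467392 to 141471473), which holds laminin-binding integrins in tetraspanin patches, was even within the control group, at 204 and 203 CPM, and stood at 305 and 337 CPM in the extravasated libraries. It rose 1.57-fold, with a log2 value of 0.65 ± 0.12 (adjusted p = 0.0047). Without extravasated_2 the value was 0.55 and not called (adjusted p = 0.074). After correction it was 0.26 ± 0.11 (adjusted p = 0.14), with groups that did not overlap, 235 and 232 against 273 and 288 CPM. Of the integrin subunits with which it assembles, Itga6 and Itgb1 fell. Itgb4 (0.92, adjusted p = 0.061), Itga3 (0.73, adjusted p = 0.21) and Itga7 (-0.29, adjusted p = 0.61), at under 5 CPM in each library, did not pass the test. Itga6, the alpha-6 subunit of laminin receptors, fell from 93.4 and 100 to 44.3 and 38.2 CPM (log2 fold change -1.23, adjusted p = 0.0011) and was called after correction, at -0.94 (adjusted p = 0.0069), though not without extravasated_1 (adjusted p = 0.055) or extravasated_2 (adjusted p = 0.085). Itgb1, its beta subunit, fell with -1.13 and was not called after correction (-0.34, adjusted p = 0.079). The Cd151 to Itga6 ratio of CPM was 2.18 and 2.03 in the control and 6.88 and 8.82 in the extravasated libraries, and 2.82 and 2.55 against 5.85 and 6.46 after correction. On both scales the lowest extravasated library had more than the highest control. This follows from the levels of each gene, whose groups stood apart in opposite directions on both scales.

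Cd82 (ENSMUSG00000027215.13, chromosome 2, 93419111 to 93463140), known as the metastasis suppressor KAI1, was close to absent from the RNA of both groups. It had 6 and 20 counts in the non-extravasated and 4 and 9 counts in the extravasated libraries, or 0.52, 1.16, 0.303 and 0.473 CPM. Without an expression filter its log2 fold change was -1.10 (edgeR, adjusted p = 0.29), and a difference was not detectable at this depth.

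Tspan4 (ENSMUSG00000025511.14, chromosome 7, 141475240 to 141493427), which builds migrasomes, vesicles left behind on the retraction fibres of migrating cells, rose from 53.1 and 45.6 to 87.1 and 94.9 CPM. The log2 fold change was 0.89 ± 0.14 (adjusted p = 0.0030), and it was called without each library in turn, with 0.78 to 0.997. After correction the levels were 64.8 and 54.9 against 75.4 and 74.5 CPM, apart but close, and the value of 0.33 ± 0.13 did not pass (adjusted p = 0.12). It did without not_extravasated_1 (0.45, adjusted p = 0.027). Tspan4 lies 3766 bases downstream of Cd151 on the same strand, so that 2 of the 4 members that rose are neighbours. Exons of Tspan4 overlap those of Chid1, a coding gene on the opposite strand with 526 to 1319 counts per library. The strand setting of the authors' counting is not given in the sources used here, and without it reads of the 2 genes in that overlap cannot be told apart. Cd9, Cd81 and Cd151 overlap non-coding genes on the other strand with at most 4, 85 and 33 counts, against at least 1188 for each member.

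Tspan9 (ENSMUSG00000030352.14, chromosome 6, 127961396 to 128143594), known from platelets, had 60.7 and 70.5 CPM in the non-extravasated and 78.2 and 90.1 CPM in the extravasated libraries. Its log2 fold change of 0.36 ± 0.15 did not pass the test (adjusted p = 0.077). It passed without not_extravasated_2 (0.47, adjusted p = 0.024) and with upper quartile scaling (0.45, adjusted p = 0.040). The corrected value was 0.08 ± 0.13. Tspan3 (ENSMUSG00000032324.11, chromosome 9, 56131725 to 56165477), a widely expressed member, stood at 117, 105, 118 and 130 CPM in the same order of libraries. Its groups nearly met, and its log2 value was 0.17 ± 0.13 (adjusted p = 0.33), with a corrected value of 0.12 ± 0.13. For both genes the corrected groups overlapped.

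**Figure D2:**
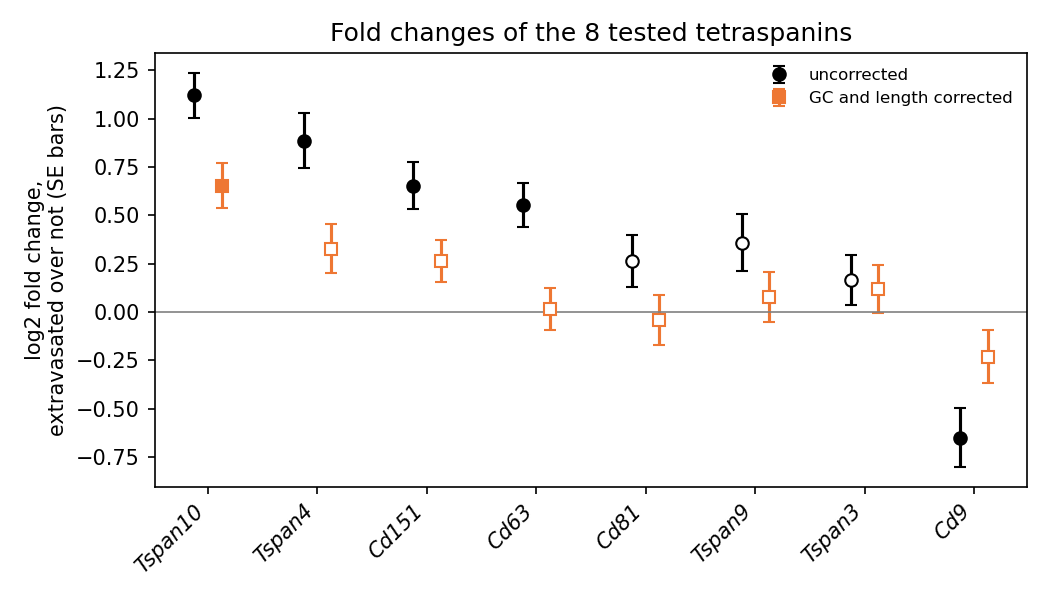
Log2 fold change of extravasated over non-extravasated cells for the 8 tested tetraspanins, with standard errors, before (circles) and after (squares) GC and length correction. Filled symbols passed the test: Tspan10, Tspan4, Cd151, Cd63 and Cd9 before correction, and Tspan10 alone (0.65) after it.

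The members' fold changes were ordered much like the GC content of their transcripts. Cd9, the 1 that fell, had the lowest GC content, 45.9%, at the 26.2th percentile of nuclear coding genes, and Tspan4 the highest, 58.1%, at the 88.8th. Tspan3 lay at 50% and Cd81 at 52.3%, and neither passed the test. Cd151 (53.7%), Cd63 (55.2%) and Tspan10 (55.7%) rose, and Tspan9 (55.3%) did not pass. Across the 8 genes Spearman's rho between GC content and log2 fold change was 0.88, and 0.71 with corrected values. This is a description of 8 genes that share the same 4 libraries. The correction took 0.54 and 0.56 off the log2 fold changes of Cd63 and Tspan4, 0.47 off that of Tspan10 and 0.05 off that of Tspan3. It moved that of Cd9 up by 0.42, from -0.65 to -0.23.

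**Figure D3:**
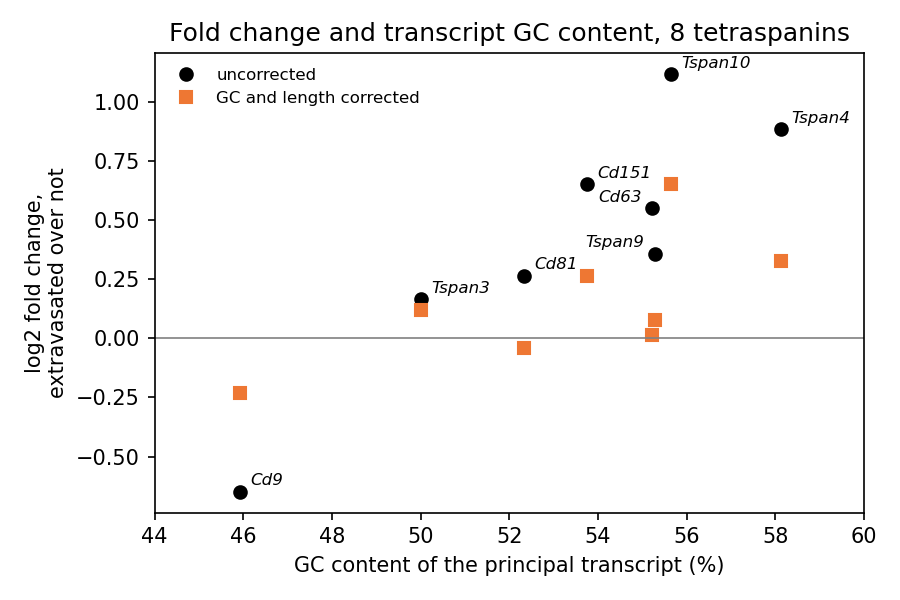
Log2 fold change of the 8 tested tetraspanins against the GC content of the principal transcript, before (black circles) and after (orange squares) correction. Before correction the points run from Cd9 (45.9% GC, -0.65) to Tspan10 (55.7%, 1.12) and Tspan4 (58.1%, 0.89); after it they span -0.23 to 0.65.

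Per kilobase of the principal transcript, Cd63 was the most abundant member, at 308 to 474 CPM per kilobase over the 4 libraries, and Cd82 the least, at 0.166 to 0.634. Between them came Cd81 (192 to 266), Tspan10 (126 to 287), Cd151 (126 to 208), Cd9 (61.0 to 114), Tspan3 (61.0 to 75.8), Tspan4 (31.1 to 64.7) and Tspan9 (15.9 to 23.6). Cd63, Tspan9 and Cd82 stood clear of their neighbours, and Cd151 (lowest 126) stood clear of Cd9 (highest 114). The ranges of the other neighbours overlapped across groups. Within each of the 4 libraries Cd81 lay above Cd151, and Tspan3 above Tspan4. Tspan10 lay below Cd81 in both control and above it in both extravasated libraries. Cd9 lay above Tspan3 in all libraries except extravasated_2, so the order of that pair differed between the 2 extravasated libraries. Tspan10 was the third of the 9 in control cells, with a mean of 132 CPM per kilobase, and the second in extravasated cells, with 286. Cd81 went from the second place (212) to the third (254), and Cd9 (105 and 67.1) and Tspan3 (64.5 and 72.4) exchanged the places behind Cd151 by their group means. With the union of annotated exons as length, 5 of the 9 kept their rank and Tspan10 came first.

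**Figure D4:**
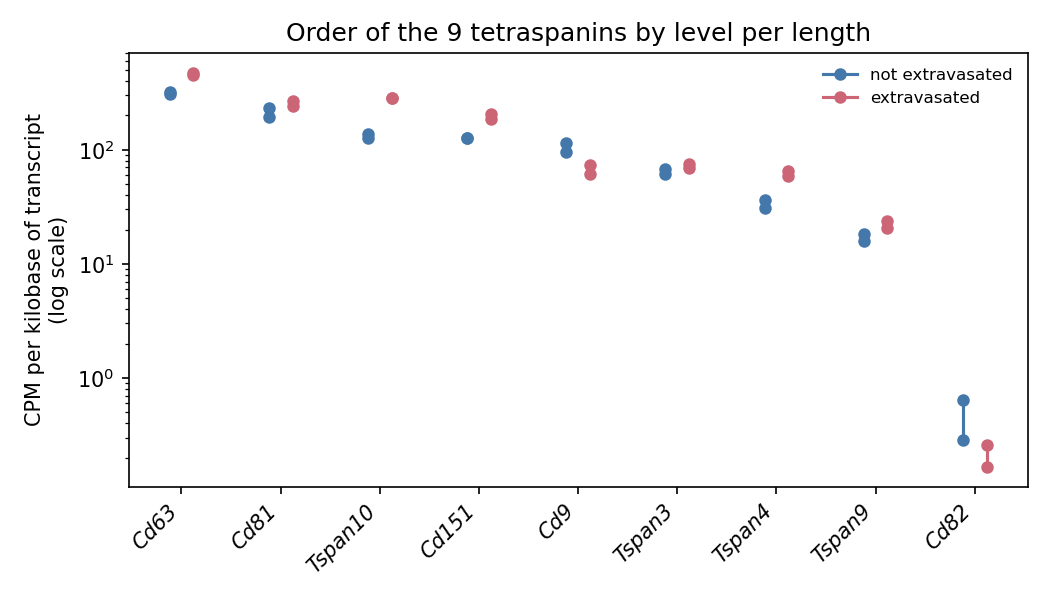
CPM per kilobase of transcript (log axis) of the 9 tetraspanins in each library, ordered by their mean. Points are libraries, joined within a group; Cd63 leads with 308 to 474, and Cd82 lies below 1 in all 4 libraries.

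The rest of the family gave 12 more tested genes of 22 in the table, out of 24 listed. Of the 10 that were not tested, 7 had no count in any library, among them the leukocyte tetraspanin Cd53, and Tspan2, Tspan32 and Cd37 had 20, 27 and 11 counts in all. Tspan2 had 10 and 9 counts in the control and 0 and 1 in the extravasated libraries, and edgeR called it lower when no expression filter was set (adjusted p = 0.0040). Tspan31, Tspan14 and Rom1 rose and Tspan12 fell, with a median log2 fold change of 0.14, that is 3 and 1 of 12 where 19.1% and 25.9% of all tested genes rose and fell. Tspan12, a co-receptor in Norrin signalling through Frizzled-4, had 27.7 and 21.1 CPM in the control and 7.87 and 8.94 CPM in the extravasated libraries (log2 fold change -1.53 ± 0.22, adjusted p = 0.0020). Its groups stood apart on both scales, and after correction its value was -0.44 and not called (adjusted p = 0.11). Tspan31 overlaps Cdk4 on the opposite strand, and its rise of 0.49 (adjusted p = 0.020) is uncertain for the same reason as that of Tspan4. It ended without extravasated_1 or extravasated_2. Rom1, a photoreceptor tetraspanin, had 5, 4, 17 and 21 counts, and its rise (1.88 ± 0.57, adjusted p = 0.029) ended without 3 of the 4 libraries in turn and with DESeq2 (adjusted p = 0.13). After correction Tspan31 had 0.43 (adjusted p = 0.061). By edgeR none of the 12 was then called, and their median was 0.27. At an unadjusted p under 0.05 there were 6 higher and 1 lower, beside 4008 of all 12320 tested genes in either direction. With the longest transcripts edgeR called Tspan7 (1.10).

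Of 14 tested partner genes of 18 listed, 1 rose and 7 fell, with a median of -0.54, beside 19.1% and 25.9% of all tested genes. Igsf8, the partner of CD9 and CD81 that carries the name EWI-2, rose from 195 and 145 to 367 and 410 CPM (log2 fold change 1.19 ± 0.16, adjusted p = 0.0020) and was called after correction, at 0.65 (adjusted p = 0.041). That call ended without extravasated_1 (adjusted p = 0.17) or extravasated_2 (adjusted p = 0.23). Besides Itga6, Itgb1 and Adam10, the genes that fell were Itga4, Cd44, the sheddase Adam17 (-1.30) and Zdhhc2 (-0.90), a palmitoyltransferase of CD9 and CD151. After correction Igsf8 rose and Itga6 fell, and 12 of the 14 were not called, where 7.91% and 5.74% of all tested genes rose and fell. At an unadjusted p under 0.05 by edgeR there were 1 higher and 4 lower, beside 4008 of all 12320 tested genes in either direction. Adam17 had -0.52 after correction (adjusted p = 0.052), and with the longest transcript it was called lower (-0.54, adjusted p = 0.045). Zdhhc2 had 0.14 after correction, and the partners' median was then 0.00. Itga4 had 161 and 54.3 CPM in the control and 30.2 and 34.9 CPM in the extravasated libraries, so not_extravasated_1 stood far above the rest. Its fall (-1.72 ± 0.51, adjusted p = 0.041) was not called with RLE or upper quartile factors. Nor was it called without an expression filter or with the title suffix as a term. The log2 value was -0.03 after correction. With limma-voom 6 partners fell in place of 7. Fewer partners fell without extravasated_2, as did fewer of all tested genes. Ptgfrn, Epcam and Ifitm1 were among the genes too low to test.

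Genes of exosome formation and release changed in both directions: 10 of 27 tested rose and 7 fell, with a median of 0.19. The share that fell equals the 25.9% of all tested genes, and 19.1% of all rose. Without extravasated_1 or extravasated_2 fewer of the 27 were called, as were fewer of all tested genes. Among the rises were Ykt6 (0.62), a SNARE of vesicle fusion, Sdc3 (0.75), a syndecan, and Flot2 (0.60), a membrane scaffold. Vps4b (-1.37), the ATPase that disassembles ESCRT-III, Stam (-1.54), of the complex that recognises ubiquitinated cargo, and Sdc2 (-1.12) fell. After correction Ykt6, Sdc3 and Flot2 had 0.40, 0.47 and 0.20. Vps4b, Stam and Sdc2 then had -0.18, -0.23 and -0.006, and none of these genes was called. Sdcbp, or syntenin, which binds CD63 and syndecans and feeds cargo into exosomes, had 223 and 144 against 144 and 169 CPM. Its control libraries lay farther apart than the groups, and its log2 value was -0.23 (adjusted p = 0.42). After correction 5 genes rose by edgeR, Sdcbp (0.75, adjusted p = 0.023), Tsg101, Stam2, Rab27a and Rab31. None of the 27 fell, and 7.91% and 5.74% of all tested genes rose and fell. At an unadjusted p under 0.05 there were 9 higher and 1 lower, beside 4008 of all 12320 tested genes in either direction. Stam2 had fallen before correction (-0.43), and Rab31 had risen (0.37). The 5 rises after correction lost their call without extravasated_1 or extravasated_2, in fits where far fewer of all tested genes were called.

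**Figure D5:**
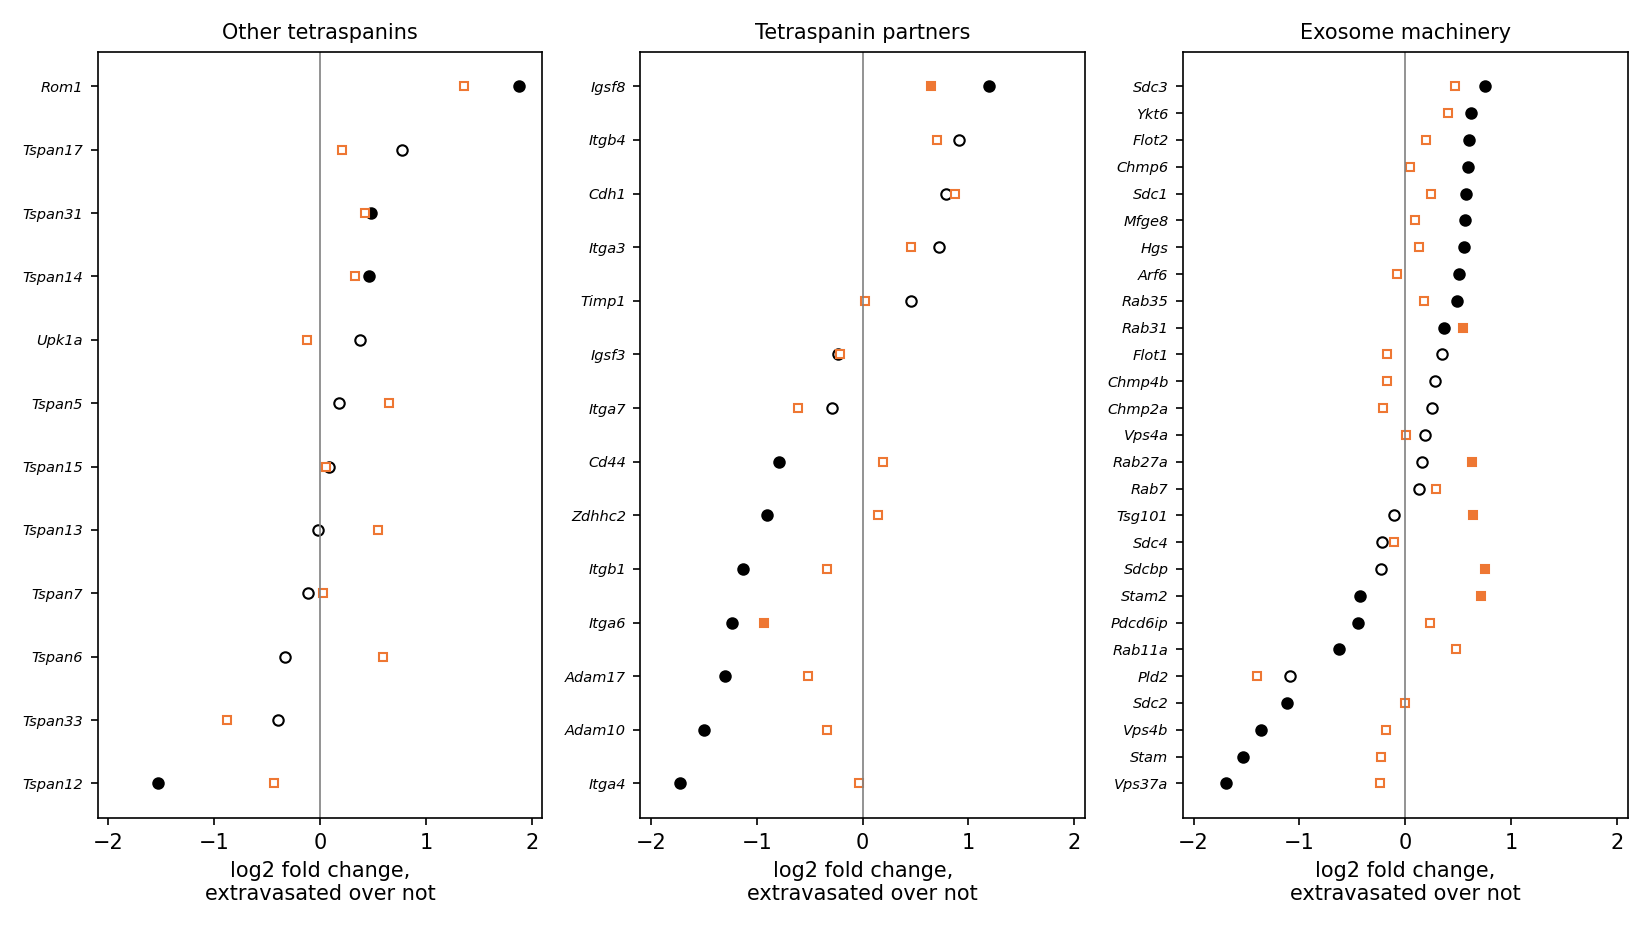
Log2 fold change of extravasated over non-extravasated cells for 12 other tetraspanins, 14 partners and 27 exosome genes, before (circles) and after (squares) GC and length correction; filled symbols passed the test. Igsf8 and Itga6 are filled on both scales among the partners, and Vps4b, Stam and Sdc2 lose their call after correction.

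The gene whose 4 centred log2 CPM values lay closest to a member's, among the 53 tested genes of these 3 lists, was Ykt6 for both Cd151 (Euclidean distance 0.06) and Cd63 (0.07). It was Tspan15 for Tspan3 (0.10), Tspan5 for Cd81 (0.13), Tspan31 for Tspan9 (0.15), Sdc3 for Tspan4 (0.17), Igsf8 for Tspan10 (0.25) and Zdhhc2 for Cd9 (0.36). With 4 libraries in 2 groups this likeness rests mainly on the group difference where that is large. For Tspan5 and Tspan15, whose groups overlapped in CPM, it rests also on the spread within groups. The distances were taken on uncorrected values. After correction the log2 fold changes were -0.04 for Cd81 and 0.65 for Tspan5, and -0.23 for Cd9 and 0.14 for Zdhhc2. Ykt6 then had 0.40, beside 0.02 for Cd63 and 0.26 for Cd151. Tspan9 and Tspan31 had 0.08 and 0.43, and Tspan4 and Sdc3 had 0.33 and 0.47. Tspan3 and Tspan15 had 0.12 and 0.06, and Tspan10 and Igsf8 both had 0.65.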

How the data were processed

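The members, gene lists and tests were chosen with earlier results of these data known. The deposited values are the authors' raw read counts per gene, whole numbers without normalization; per the submitters' processing notes, bcl2fastq 2.18.0.12, STAR 2.5.3a and the GRCm38 build were used, and the counter, annotation release and strand setting are not given in the sources used here. Identifiers were matched without version to GENCODE M21 (53274 of 53465). Genes were tested with edgeR 4.0.16 (R 4.3.3): genes were kept by its default filter on low counts (at least 10, with 15 in total), scaled by TMM and fitted robustly without covariates, with a two-sided quasi-likelihood test, Benjamini-Hochberg adjustment over 12320 genes and a threshold of 0.05. Standard errors were derived from the fold changes and their F values. For the correction, a smooth curve (mgcv 1.9.3, basis size 10) of each library's departure from the average log2 CPM (prior count 2) over transcript GC and log2 length was used as an offset, with the principal (APPRIS) coding transcript standing for the gene; mitochondrial genes received none. Alternatives were RLE and upper quartile factors, library totals, DESeq2 1.42.0, limma-voom (limma 3.58.1), other filters, the kind of title suffix as a term, the longest coding transcript, and each library left out with and without correction. Named genes were all members, up to 6 called genes per list with the smallest adjusted p, the nearest gene to each member, and Itgb1, Itga6, Adam10 and Sdcbp; others were named to complete a count after their values were seen. The code was tested on simulated counts.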

Additional observations from a re-analysis of the deposited data

How the results depend on the processing

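Which part of the trend with transcript GC content is technical was not tested, and the number in the titles cannot be told apart from extravasation. With the principal transcript, correction left 1 member called higher and 0 lower (edgeR; 3 and 0 at an unadjusted p under 0.05), 0 higher and 0 lower of the other tetraspanins (6 and 1 unadjusted), 1 partner lower, and 5 exosome genes higher and 0 lower. With the longest transcript these numbers were 2, 0, 1, 0, 2, 5 and 0. Of all 12320 tested genes, 4008 had an unadjusted p under 0.05 with the principal transcript. The log2 fold change of Cd81 turned to -0.039 and -0.073 with the 2 transcripts, that of Zdhhc2 to 0.14 and 0.11, and that of Sdcbp to 0.75 and 0.82. Without an expression filter 2 of the other tetraspanins were lower, and upper quartile factors gave 3 partners higher; the cause was not tested. With exon unions as length, 5 of the 9 members kept their rank.

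With 1 library left out, 2 to 5 members were higher and 0 to 1 lower, against 0 to 2 and 0 after correction; 0 to 3 other tetraspanins were higher and 1 lower, against 0 to 3 and 0; 1 to 2 partners were higher and 4 to 8 lower, against 0 to 3 and 0 to 4; and 0 to 10 exosome genes were higher and 3 to 8 lower, against 0 to 8 and 0 to 1. Over all tested genes edgeR called 1162 higher and 2079 lower without extravasated_1 and 292 and 1385 without extravasated_2, against 2355 and 3196 with all libraries. After correction these were 112 and 111, 14 and 5, and 974 and 707, and 1789 and 1326 without not_extravasated_1. In each of these fits the lone library of a group is assumed to vary like the other group. Log2 fold changes then ranged from -0.024 to 0.61 for Cd63, -0.17 to 0.40 for Cd81, -0.02 to 0.48 for Tspan9, -1.09 to 0.33 for Zdhhc2, -1.24 to 0.019 for Sdc2, -0.053 to 0.20 for Tspan15 and -0.51 to 0.94 for Sdcbp, with and without correction. Of the 27 genes under the naming rule the other 20 kept their direction in these fits; genes outside it also turned after correction, among them Stam2, Tsg101 and Cd44. The labels carry no replicate numbers. With the kind of title suffix as a term, 4 members were higher and 1 lower, as without it, 4 other tetraspanins were higher in place of 3 and 6 partners lower in place of 7.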
